A study of Mus musculus with 8 samples.

Results

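MHC class II molecules present peptides to CD4 T cells, and 9 mouse genes of that pathway were followed here across 8 primary osteosarcomas, malignant tumours of bone-forming cells. The set held the chain genes H2-Aa, H2-Ab1 and H2-Eb1, the invariant chain gene Cd74, the transactivator Ciita, the peptide-exchange genes H2-DMa and H2-DMb1, and H2-Oa and H2-Ob, which encode the brake on that exchange. They were chosen by name as known parts of the pathway, and each gene was read from the array rows listing it as the single gene. This gave 8 of the 9 genes, among 19938 genes tested. H2-DMb1 was listed only on a row shared with a second gene and is not analysed here.

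The alpha and beta chains of a class II molecule are assembled with the invariant chain, which fills the peptide groove and steers the complex to endosomes. There proteases degrade it, and H2-DM exchanges its last fragment for peptide, while H2-O restrains H2-DM. Dendritic cells, B cells and macrophages carry class II molecules, and interferon gamma can induce them in many other cells through Ciita, which acts on promoters that hold the X and Y boxes.

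RNA was measured in bulk tumour tissue of C57Bl6 mice, 1 array per tumour. In 4 tumours, the shRNA OS model, p53 was targeted by the hairpin P53.1224. The other 4, the Cre:lox OS model, were P53fl/fl. In shRNA OS, replicates 1 to 3 were tibial and replicate 4 humeral, and replicate 2 was Rb+/+. In Cre:lox OS, replicate 1 was a scapular Rb+/+ tumour, replicate 2 was humeral, and replicates 3 and 4 were tibial. The 6 tumours not named as Rb+/+ were Rbfl/+. The labels state neither age nor sex nor tumour cell content, nor which promoter drives the hairpin or Cre. The comparisons ask whether class II expression differs between tumours of the 2 p53 models and between tumours of different bones.

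The number of arrays limited the precision. Array medians lay between 7.13 and 7.23, and 1 array stood apart, that of shRNA OS replicate 2. Its correlation with the remaining 7 averaged 0.941 where the rest averaged 0.961 to 0.968. Its interquartile range was 2.59 and that of Cre:lox OS replicate 3 was 2.79, where the rest had 2.95 to 3.19 (log2). The arrays thus did not share 1 distribution. The tumours expressed osteoblast lineage genes strongly: Ibsp, which encodes bone sialoprotein, lay between 12.91 and 13.52 and Col1a1, a chain of type I collagen, between 13.00 and 13.61 (log2). In bulk tissue more cells of a type and more RNA per cell cannot be told apart, and no value here assigns class II RNA to tumour cells or to immune cells.

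To show what chain genes share beyond their function, promoter windows were searched for an X box core followed by a Y box core. No window was available for H2-Ab1, Cd74 and Ciita, so these genes were not searched. The matches in the 4 measured genes that held one are printed. Each stretch below is from RefSeq (GRCm38.p6), written 5′ to 3′ on the gene's strand, and the capitals mark GNAAC (X box core) and then GATTGG (Y box core). The stretches lie at chr17:34287847-34287924 (H2-Aa, minus strand), chr17:34305756-34305832 (H2-Eb1, plus strand), chr17:34092283-34092360 (H2-Oa, plus strand) and chr17:34238798-34238872 (H2-Ob, plus strand).
H2-Aa: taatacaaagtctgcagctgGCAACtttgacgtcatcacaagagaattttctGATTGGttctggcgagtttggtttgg
H2-Eb1: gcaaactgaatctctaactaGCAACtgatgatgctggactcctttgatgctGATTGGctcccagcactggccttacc
H2-Oa: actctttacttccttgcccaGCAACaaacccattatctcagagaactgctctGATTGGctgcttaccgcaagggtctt
H2-Ob: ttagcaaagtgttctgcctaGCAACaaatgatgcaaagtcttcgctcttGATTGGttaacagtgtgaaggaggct

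In these 4 genes the Y box core began 44 to 60 bases before the start site, and the X box core began 29 to 32 bases before the Y box core. The search also matched H2-DMb1, with the Y box core 62 bases before the start site, and H2-Eb2, with it 101 bases before. Of 32851 RefSeq windows of 300 bases on either strand, 16.1% held GATTGG, 84.8% held GNAAC and 0.922% held both with starts 25 to 40 bases apart on one strand. The search form was chosen after the windows had been read. Neither window of H2-DMa held that arrangement. A match is a stretch of letters and not a measured binding site.

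H2-Aa encodes the alpha chain of the I-A class II molecule. It stood at 12.56, 11.06, 11.00 and 10.94 in shRNA OS replicates 1 to 4 and at 10.70, 8.93, 11.06 and 11.32 in Cre:lox OS replicates 1 to 4 (log2 level). The single high tumour was shRNA OS replicate 1 and the single low tumour was the humeral Cre:lox OS replicate 2. The other 6 tumours lay between 10.70 and 11.32, so the models overlapped.

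H2-Ab1 encodes the beta chain that pairs with that alpha chain. Its levels were 12.06, 10.65, 10.28 and 10.22 in shRNA OS and 10.03, 8.51, 10.40 and 10.79 in Cre:lox OS, in replicate order. The same 2 tumours held the extremes, 3.54 apart.

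H2-Eb1 encodes the beta chain of the I-E molecule. Its levels were 11.79, 10.54, 9.88 and 9.93 in shRNA OS and 9.74, 8.62, 9.87 and 10.40 in Cre:lox OS. C57BL/6 mice carry a defective copy of its partner gene, H2-Ea, and H2-Ea ran flat at 4.96 to 5.27 across the 8 tumours. Against a range of 3.17 for H2-Eb1, H2-Ea had a range of 0.30.

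Cd74, the invariant chain, followed the chain genes in its extremes but not throughout. It stood at 12.04, 10.44, 11.17 and 10.93 in shRNA OS and at 9.76, 8.63, 10.15 and 10.74 in Cre:lox OS. Among shRNA OS tumours replicate 2 was the lowest for Cd74 and the second highest for H2-Aa, H2-Ab1 and H2-Eb1. Of the Cre:lox OS tumours only replicate 4 reached into the shRNA OS range.

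Ciita had levels of 7.56, 6.71, 6.44 and 6.64 in shRNA OS and 6.50, 6.29, 6.71 and 6.59 in Cre:lox OS. It was below the median of genes on all 8 arrays, and signal over background was not analysed here. Its highest and lowest tumours were those of the chain genes, with 0.84 between the highest and the next. Ciita RNA can start at separate promoters in dendritic cells, B cells and interferon-treated cells, and the array row does not tell these apart.

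H2-DMa, 1 chain of the peptide exchanger, stood at 10.51, 8.27, 8.79 and 8.54 in shRNA OS and at 8.20, 8.21, 8.81 and 9.83 in Cre:lox OS. It was high in shRNA OS replicate 1 and in Cre:lox OS replicate 4, and between 8.20 and 8.81 in the rest. Cre:lox OS replicate 2, the lowest tumour for the chain genes, lay here beside Cre:lox OS replicate 1.

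H2-Oa and H2-Ob encode the chains of H2-O, which is best known from B cells and some dendritic cells. H2-Oa ranged from 6.10 to 6.69 and H2-Ob from 6.37 to 7.12, both below the median of genes on every array. Their spread over tumours (SD 0.21 and 0.25, n = 8) compares with 0.89 to 1.02 for H2-Aa, H2-Ab1, H2-Eb1 and Cd74. At such low levels a flat row does not show that the gene was constant.

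**Figure D1:**
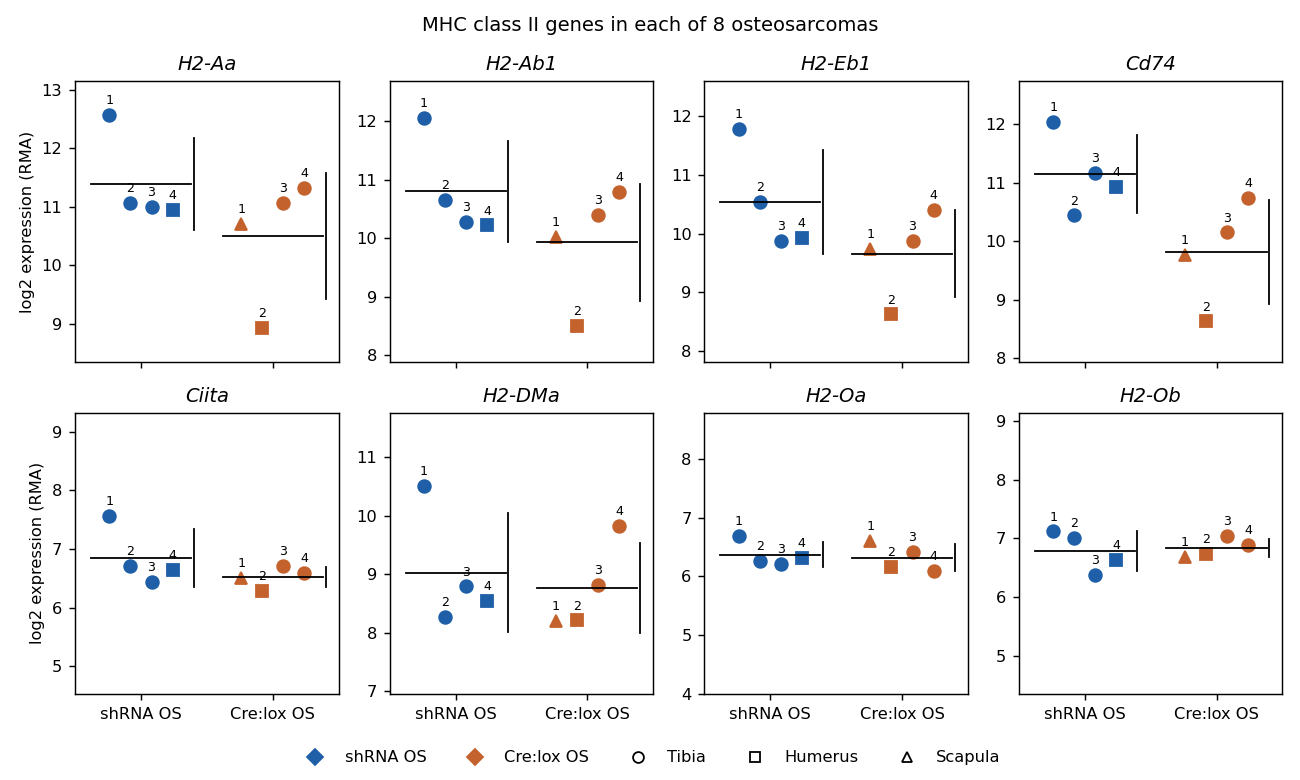
Level of 8 MHC class II genes (log2 RMA values, y axis) in each tumour, by model (x axis), with the replicate number above each point, the bone as the marker shape, the group mean as a horizontal line and ± 1 SD (n = 4) as a vertical line. Each panel spans the same number of log2 units. shRNA OS replicate 1 is the highest point in all 8 panels, by only 0.08 for H2-Oa and 0.07 for H2-Ob, and Cre:lox OS replicate 2 the lowest in 5.

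Across the set, shRNA OS replicate 1 was the highest tumour for 8 of 8 genes, and Cre:lox OS replicate 2 was the lowest for 5 (H2-Aa, H2-Ab1, H2-Eb1, Cd74 and Ciita). For H2-Oa and H2-Ob, both of low signal, shRNA OS replicate 1 led the next tumour by only 0.08 and 0.07. That tumour was also highest for H2-Ea and H2-Eb2. It had the highest mean of the dendritic cell, B cell, T and NK cell and costimulatory genes treated below. Its macrophage, endosomal and interferon gamma signalling means were not the highest. For H2-Aa, H2-Ab1, H2-Eb1 and Cd74 the top tumour lay 0.87 to 1.26 above the next, and the bottom tumour 1.11 to 1.78 below the next. The SDs of these 4 genes exceeded those of 97.4% to 98.5% of all genes. H2-Oa and H2-Ob exceeded 31.7% and 45.3%.

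Between the models, 7 of the 8 genes had the higher mean in shRNA OS, where 51.9% of all genes did. Cd74 was 2.51-fold higher, with 11.15 ± 0.67 in shRNA OS against 9.82 ± 0.89 in Cre:lox OS (log2, SD, n = 4 each), a log2 difference of 1.33 (SE 0.45, 95% interval 0.31 to 2.34). H2-Aa, H2-Eb1 and H2-Ab1 had differences of 0.89, 0.88 and 0.87, each with an interval that included 0. Ciita stood at 0.31, H2-DMa at 0.27, H2-Oa at 0.05 and H2-Ob at -0.06. The median difference of the 8 genes was 0.59, beside 0.01 for all genes.

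None of the 8 passed limma's test adjusted over all genes, which 0.0201% of all genes passed. The smallest adjusted p was 0.389, for Cd74, and the others lay between 0.599 and 0.952. Before adjustment, limma put 1 gene under 0.05, Cd74, where 9.63% of all genes reached that mark. No gene of the set separated the models without overlap, which 5.44% of all genes did. Single tumours carried much of the difference. Without shRNA OS replicate 1 the difference of H2-Aa was 0.50, of H2-Ab1 0.45, of H2-Eb1 0.46 and of Ciita 0.07, and that of H2-DMa turned to -0.23. Without Cre:lox OS replicate 2 it was 0.36 for H2-Aa, 0.40 for H2-Ab1, 0.54 for H2-Eb1, 0.93 for Cd74 and 0.08 for H2-DMa. H2-DMa was also at 0.08 without Cre:lox OS replicate 1, and at 0.62 without Cre:lox OS replicate 4. Cd74 was at 1.03 when shRNA OS replicate 1 was left out and at 1.56 when the array that stood apart was.

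**Figure D2:**
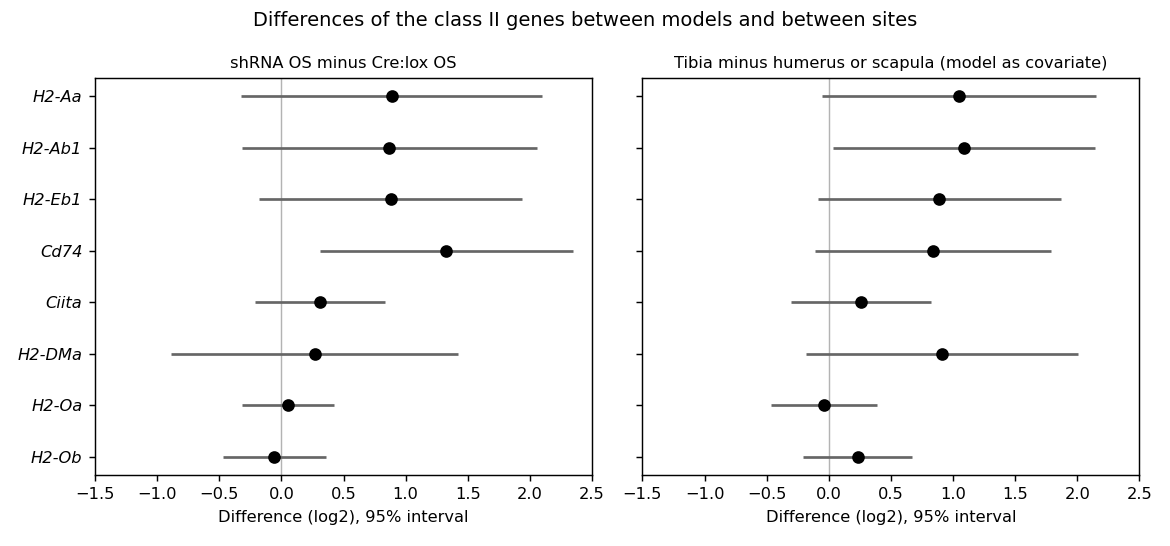
Log2 difference of each class II gene (x axis) between models (left) and between sites with the model as a covariate (right), from limma. Points are estimates and lines are 95% intervals from 8 tumours. The interval of Cd74 leaves out 0 on the left (0.31 to 2.34) and that of H2-Ab1 leaves out 0 on the right (0.04 to 2.14), and no gene passed after adjustment over all genes.

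Between sites, the 5 tibial tumours were compared with the 3 from humerus or scapula, with the model as a covariate. H2-Ab1 was 2.13-fold higher in tibial tumours, a log2 difference of 1.09 (SE 0.46), and H2-Aa 2.07-fold higher, a difference of 1.05 (SE 0.49). H2-DMa stood at 0.91, H2-Eb1 at 0.89, Cd74 at 0.84, Ciita at 0.26, H2-Ob at 0.23 and H2-Oa at -0.04. In all, 7 of the 8 were higher in tibial tumours, where 44.5% of all genes were, and the median difference was 0.86 beside -0.03 for all genes.

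The site differences did not pass either. Of the 8 genes 0 passed limma's adjusted test, as did 0% of all genes, with H2-Ab1 at adjusted p = 0.856 and the others higher. Before adjustment, limma put H2-Ab1 alone under 0.05, a mark met by 5.64% of all genes. H2-Aa and H2-Ab1 did not overlap between the sites, as was true of 2.60% of all genes. Both gaps were narrow, from 10.94 in the humeral shRNA OS tumour to 11.00 in the lowest tibial tumour for H2-Aa and from 10.22 to 10.28 in the same 2 tumours for H2-Ab1.

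Site and model were not independent, since shRNA OS held 3 of the 5 tibial tumours. Within shRNA OS the tibial mean of H2-Ab1 was 0.78 above the single humeral tumour, and within Cre:lox OS it was 1.32 above the other 2 tumours. For H2-Aa these differences were 0.61 and 1.38, and for Cd74 0.28 and 1.25. Among tibial tumours alone, shRNA OS exceeded Cre:lox OS by 0.77 for Cd74, 0.61 for H2-Eb1, 0.40 for H2-Ab1 and 0.35 for H2-Aa, while H2-DMa was at -0.13. These values rest on 1 to 3 tumours a side. Without Cre:lox OS replicate 2, which is humeral and held the lowest chain gene levels, the site difference was 0.55 for H2-Aa (1.05 with it), 0.68 for H2-Ab1 (1.09 with it) and 0.47 for Cd74 (0.84 with it). Ciita was at 0.13 when shRNA OS replicate 1 was left out, and H2-Oa turned to 0.09 when Cre:lox OS replicate 1 was and to 0.05 when Cre:lox OS replicate 4 was.

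The factors that bind class II promoters are expressed in most cells, and Ciita is the part that limits the complex. Of 7 such factors, shRNA OS had the higher mean for 5 and the lower for 2, with a median difference of 0.07, and 0 passed the adjusted test. Rfx5, a subunit of the X box binding complex, stood at 8.23 ± 0.06 in shRNA OS and 7.86 ± 0.18 in Cre:lox OS (log2, SD, n = 4 each), a difference of 0.37 (SE 0.13, limma adjusted p = 0.408). Its lowest shRNA OS tumour (8.15) lay above its highest Cre:lox OS tumour (8.07), and 5.44% of all genes likewise did not overlap between models. Nfyb, a subunit of the Y box binding factor, was at 0.20. Between sites 1 of the 7 was higher in tibial tumours, with Rfxap at -0.25 and Rfx5 at -0.15.

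Interferon gamma signalling genes showed no common direction between models, with 4 of the 8 measured (of 9 listed) higher, 4 lower and a median of -0.10. The leading ones were Socs1, a feedback inhibitor of the pathway (-0.36), and the receptor chain Ifngr1 (-0.21). By site, Irf8, a transcription factor of myeloid cells, was at 0.86 and the kinase gene Jak2 at -0.86. Ifng itself lay between 6.23 and 6.64, below the array's median of genes in every tumour. None of the 8 passed in either comparison.

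Endosomal genes of the pathway mostly had differences of the opposite sign to the chain genes between models. Of 9, 8 had the lower mean in shRNA OS, with a median of -0.34, and 0 passed. The proteases Ctsl (-0.52, SE 0.22) and Ctsd (-0.36) had the smallest p values. Ctss, which encodes cathepsin S, the protease that trims the invariant chain, stood at 11.20, 9.87, 9.25 and 8.78 in shRNA OS and at 9.97, 9.88, 11.00 and 11.46 in Cre:lox OS. It was high in the 2 tibial Cre:lox OS tumours and in shRNA OS replicate 1, and the other 3 shRNA OS tumours were the lowest. By site 7 of the 9 were higher in tibial tumours, with Ctss at 1.31 (SE 0.39) and Ctsb at 0.52 (SE 0.15), both at limma adjusted p = 0.691.

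Costimulatory and checkpoint ligands, which accompany class II on presenting cells, had 2 of 6 higher and a median of -0.04 between models, with Icosl at 0.23 and Cd40 at -0.16. Between sites all 6 were higher in tibial tumours, led by Cd86 at 1.20 (SE 0.43, limma adjusted p = 0.787) with Cd80 at 0.29. Cd4 and Lag3, the T cell receptors for class II molecules, were at 0.26 and 0.17 between models and at 0.43 and -0.10 between sites. H2-Eb2, a further class II beta chain gene, ranged from 5.88 to 6.46 and was at 0.02 in both comparisons, and H2-Ea was at 0.08 between models and -0.03 between sites.

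Macrophage genes, from cells that are an abundant source of class II in tumours, had lower means in shRNA OS for 14 of 15, with a median of -0.70. The summed level, as the mean log2 value of the 15, was 10.43, 9.23, 9.41 and 8.85 in shRNA OS and 9.45, 9.79, 10.66 and 10.68 in Cre:lox OS. The mean of H2-Aa, H2-Ab1, H2-Eb1 and Cd74 in the same order was 12.11, 10.67, 10.58 and 10.50, and 10.06, 8.67, 10.37 and 10.81. shRNA OS replicate 1 was high in both, and the humeral shRNA OS replicate 4 had the lowest macrophage level but a class II level above that of 3 of the 4 Cre:lox OS tumours. The class II mean minus the macrophage mean lay between 1.17 and 1.68 in shRNA OS and between -1.12 and 0.60 in Cre:lox OS. This difference was formed after the values were seen, from lists that differed between models in opposite directions. Its lack of overlap was thereby favoured in advance, and it is given with no test.

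By site most macrophage genes had differences of the same sign as the class II genes: 13 of 15 were higher in tibial tumours, with a median of 1.17 and with C1qc, a chain of the complement protein C1q, at 1.41 (SE 0.34, limma adjusted p = 0.647) and C1qb at 1.19. Between models the leading genes were the scavenger receptor Msr1 (-1.55, SE 0.46, limma adjusted p = 0.304) and the integrin Itgam (-1.04 with SE 0.40). With the macrophage mean added to the fit as a covariate, no model difference of the class II genes passed the threshold. Cd74 was then at 1.93 (SE 0.38), H2-Ab1 at 1.60 (SE 0.42), H2-Aa at 1.59 (SE 0.46) and H2-Eb1 at 1.52 (SE 0.38). Their site differences were then -0.09 (SE 0.61), 0.10 (SE 0.68), 0.10 (SE 0.73) and -0.10 (SE 0.61). Without the covariate the SEs of the site differences ran from 0.42 for Cd74 to 0.49 for H2-Aa. Most macrophage genes themselves had higher levels in tibial tumours and lower means in shRNA OS. This fit therefore could not tell site or model apart from macrophage level. The part of macrophage content in either comparison was not tested.

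**Figure D3:**
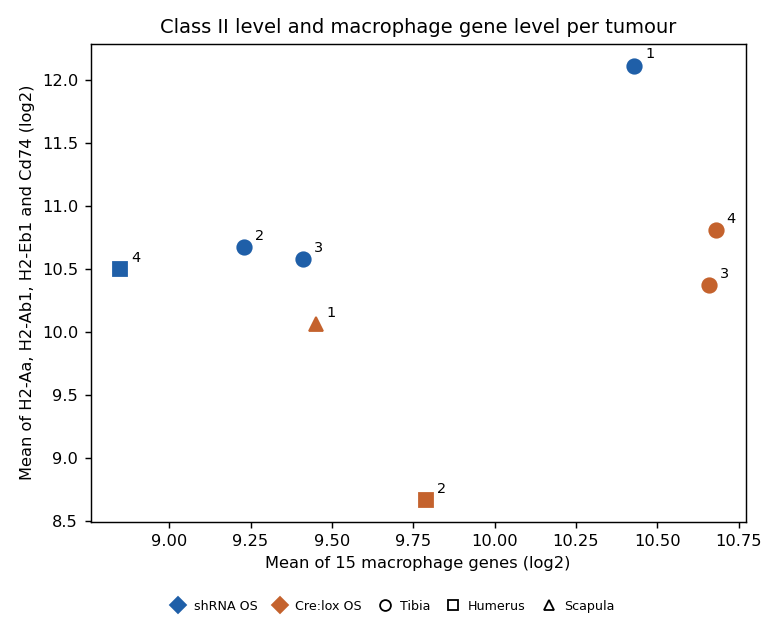
Mean log2 level of H2-Aa, H2-Ab1, H2-Eb1 and Cd74 (y axis) against that of 15 macrophage genes (x axis), 1 point per tumour, coloured by model, shaped by bone and labelled with the replicate number. shRNA OS replicate 2, 3 and 4 combine macrophage means of 8.85 to 9.41 with class II means of 10.50 to 10.67, and Cre:lox OS replicate 2 has the lowest class II mean, 8.67, at a macrophage mean of 9.79.

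Dendritic cell genes had a mean level of 6.63 to 7.26 in shRNA OS and 6.68 to 7.05 in Cre:lox OS, with 6 of 9 below the median of genes on every array, a statement about array signal that does not rank RNA levels of different genes. Itgax, an integrin of dendritic cells and some macrophages, lay above that median in every tumour, at 7.69 to 9.34. Clec9a, a receptor of cross-presenting dendritic cells, stood at 6.59, 6.28, 5.82 and 5.96 in shRNA OS and 5.47, 5.37, 5.98 and 5.38 in Cre:lox OS, a difference of 0.61 (SE 0.21, limma adjusted p = 0.386). The models overlapped through Cre:lox OS replicate 3. Cd209a was at -0.28, and by site Itgax was at 0.57 and Cd209a at 0.33. B cell genes had means of 5.86 to 6.16 and 5.77 to 6.07, with 7 of 8 below the median throughout, among them Cd79a at 4.66 to 5.16 and Ms4a1 at 4.85 to 5.43. Cd79b, at 0.26 between models and 0.46 between sites, led that list, followed by Blk (0.12 between models) and Cd22 (0.23 between sites).

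T and NK cell genes had means of 6.15 to 6.68 in shRNA OS and 6.08 to 6.58 in Cre:lox OS, with 6 of 9 below the median throughout. Klrb1c (-0.37) and Cd5 (0.30) led between models, and Cd3g (0.59) and Cd2 (0.23) between sites. Endothelial genes were higher in shRNA OS for 6 of 6 (median 0.22), led by the angiopoietin receptor Tek at 1.01 and by Tie1 at 0.42, and lower in tibial tumours for 6 of 6, with Pecam1 at -0.23 and Kdr at -0.19. Of 8 osteoblast lineage genes 4 were measured: between models Sp7 was at 0.54, Alpl at 0.24, Ibsp at 0.13 and Col1a1 at -0.06, and between sites Alpl was at -0.45, Sp7 at -0.41, Ibsp at -0.34 and Col1a1 at -0.18. No gene of these lists passed the adjusted test in either comparison.

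**Figure D4:**
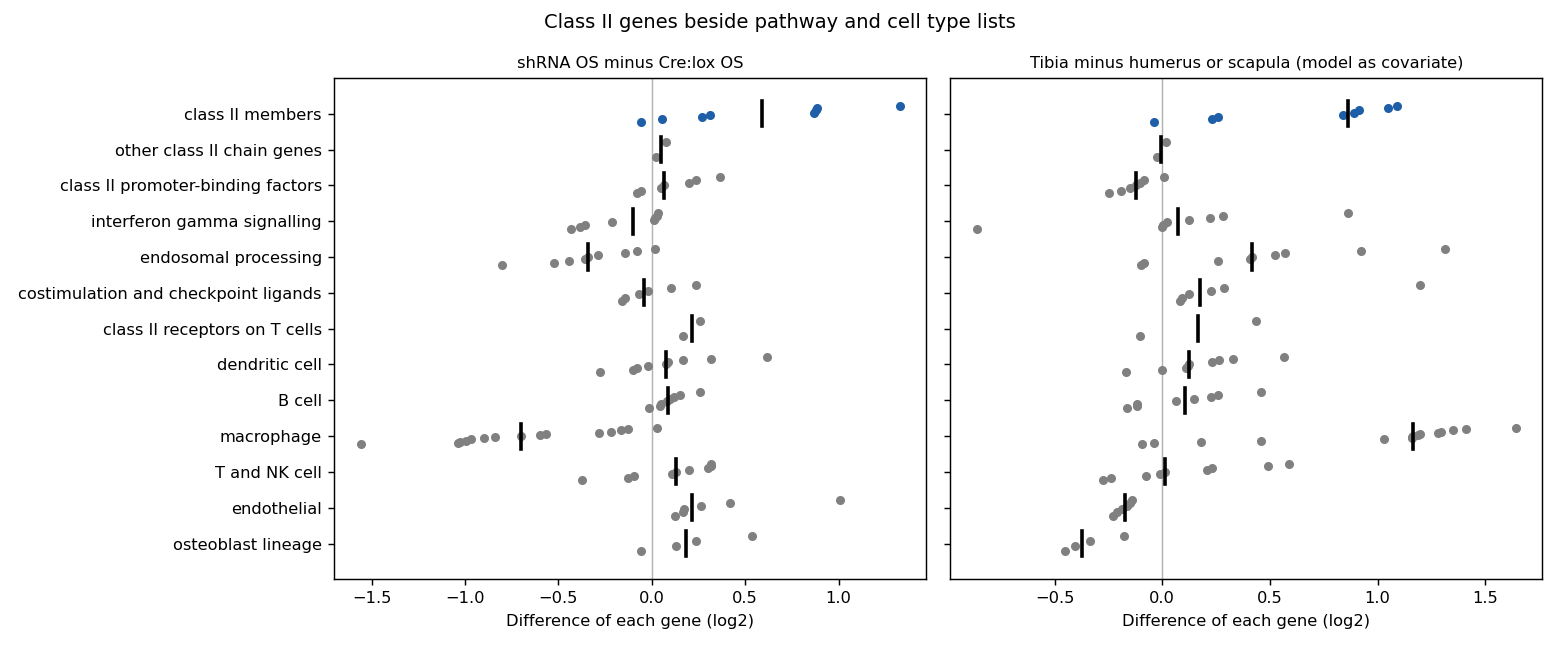
Log2 difference of every measured gene of each list (points, x axis) and the median of the list (bar), between models (left) and between sites with the model as a covariate (right). The medians of the class II list are 0.59 and 0.86, those of the macrophage list -0.70 and 1.17, and those of the endosomal list -0.34 and 0.42.

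Cd74 was set against 6 other measures across the 8 tumours, with exact 2-sided permutation tests adjusted over the 6. With Ciita, Pearson's r was 0.74 (exact permutation p = 0.0553, adjusted 0.171) and Spearman's rho was 0.43 (exact permutation p = 0.299, adjusted 0.72). Without shRNA OS replicate 1 and Cre:lox OS replicate 2, the tumours farthest from the median of Ciita, r was -0.21. It was 0.55 without shRNA OS replicate 1 alone and 0.70 without Cre:lox OS replicate 2 alone. Those 2 tumours also held the extremes of Cd74, so the 6 left span a narrower range. They cannot show whether a relation holds beyond the 2. The same 2 tumours were left out for the B cell mean (r 0.64, rho 0.38, exact permutation p = 0.0856 and 0.36, adjusted 0.171 and 0.72, and r -0.41 without the 2) and for the T and NK cell mean (r 0.67, rho 0.60, exact permutation p = 0.067 and 0.132, adjusted 0.171 and 0.72, and r -0.06 without the 2).

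With the macrophage mean r was 0.11 and rho -0.12 (exact permutation p = 0.806 and 0.793, adjusted 0.806 and 0.84), and r was 0.19 without Cre:lox OS replicates 3 and 4. With the dendritic cell mean r was 0.42 and rho 0.12 (exact permutation p = 0.304 and 0.793, adjusted 0.455 and 0.84), and r was 0.01 without shRNA OS replicate 1 and Cre:lox OS replicate 3. With interferon gamma signalling r was 0.19 and rho -0.10 (exact permutation p = 0.669 and 0.84, adjusted 0.802 and 0.84), and r was 0.21 without shRNA OS replicate 2 and Cre:lox OS replicate 4. These values pool models whose means of Cd74 and of the macrophage genes differ in opposite directions.

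The 6 relations were therefore also computed with both measures centred on the mean of their model and permuted within it, a step added after the data were seen. The macrophage mean then gave r 0.75 and rho 0.76 (exact permutation p = 0.059 and 0.0642, adjusted 0.0911 and 0.181), and r was 0.42 without shRNA OS replicate 1 and Cre:lox OS replicate 4. Interferon gamma signalling gave r 0.92 and rho 0.83 (exact permutation p = 0.00868 and 0.0347, adjusted 0.0521 and 0.181), and r was 0.81 without Cre:lox OS replicates 2 and 4. So for both lists the pooled and the centred values differed widely, and neither passed the adjustment.

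Ciita gave r 0.67 and rho 0.67 after centring (exact permutation p = 0.0556 and 0.0903, adjusted 0.0911 and 0.181), and r was 0.79 without shRNA OS replicates 1 and 3. The T and NK cell mean gave r 0.73 and rho 0.52 (exact permutation p = 0.0608 and 0.233, adjusted 0.0911 and 0.349), and r was 0.21 without shRNA OS replicate 1 and Cre:lox OS replicate 4. The B cell mean gave r 0.54 and rho 0.36 (exact permutation p = 0.208 and 0.411, adjusted 0.25 and 0.411), and r was 0.36 without shRNA OS replicate 3 and Cre:lox OS replicate 2. The dendritic cell mean gave r 0.39 and rho 0.33 (exact permutation p = 0.351 and 0.411, adjusted 0.351 and 0.411), and r was 0.20 without shRNA OS replicates 1 and 3. It was 0.03 without shRNA OS replicate 1 alone. Single models of 4 tumours get no value of their own.

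The genes whose pattern over the 8 tumours was most like the mean of H2-Aa, H2-Ab1, H2-Eb1 and Cd74 were ranked by Pearson's r among 2643 genes with an SD of at least 0.5. Leading were Iigp1, an interferon-inducible GTPase (0.918), Clec7a, the beta-glucan receptor dectin-1 of myeloid cells (0.908), Socs2, a suppressor of cytokine signalling (0.901), and Slamf7, a receptor of lymphoid and myeloid cells (0.899). The fifth in rank is not named here, and next came Jchain (0.845), which encodes the joining chain of polymeric antibodies, Wfdc17 (0.843), the T cell receptor component Cd3g (0.827), the chemokine gene Cxcl9 (0.823), Ifi213 (0.810) and Plbd1 (0.810). In rank order the likeness was closest for Iigp1 (Spearman's rho 0.98) and weakest for Slamf7 (0.60). By the same measure Ciita was at 0.85, H2-DMa at 0.78, H2-Oa at 0.48, H2-Ob at 0.41 and H2-Ea at 0.03. These values describe 8 tumours, of which 2 held the extremes.

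The class II chain genes lie together on chromosome 17, and the 5 further genes measured between H2-Oa and H2-Ea in gene order served as a view of the same stretch. The stretch was picked after these values had been seen, and the genes in it were then taken by position. Brd2, a chromatin reader, had a difference of -0.19 between models. The antigen processing genes Psmb9, Tap1, Psmb8 and Tap2, which serve class I, were at -0.29, -0.26, -0.98 and -0.33. All 5 had the lower mean in shRNA OS, and their r with the class II mean lay between -0.22 and 0.37.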

How the data were processed

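The authors deposited 1 log2 expression value per probe set and array. The submitters' processing notes name RMA, a method that corrects background, normalizes arrays by quantiles and summarises probes, and the genome build mm9, with no version or filter. Per the labels, RNA came from Trizol lysates of whole tumours. Each 1-colour array held 35556 probe sets, of which 21789 list 1 gene in the platform annotation, 1621 several and 12146 none. The probe set with the highest mean stood for a gene, and each of the 8 class II genes had 1. Tumours are numbered in accession order, and limma's p-values rest on how far single tumours differ.

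Differences were tested with limma 3.58.1 (lmFit, eBayes) in R 4.3.3 over 19938 genes with Benjamini-Hochberg adjustment at 0.05, without a covariate for models and with the model as covariate for sites. The fits were tested on simulated data. The mean over class II genes covers the 8 measured of the 9. Promoter windows (GRCm38.p6) were taken from RefSeq for names and letters only. Windows were available for 5 of the 8 genes measured here (H2-Aa, H2-Eb1, H2-Oa, H2-Ob and H2-DMa), and those of H2-DMa lacked the arrangement searched for. H2-Ab1, Cd74 and Ciita had no window.

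The members and lists were chosen with earlier results of these data known. Each list gives by name its 2 genes of smallest p in each comparison, or all genes where it holds up to 4, and the 10 of highest likeness, leaving out unnamed transcripts and antigen receptor segments (1 gene). The neighbours in gene order, the remaining osteoblast genes and the levels of Cd79a, Ms4a1 and Ifng were chosen after their values were seen. Alternatives were quantile normalization, median centring, a filter on genes below the 25th percentile, the mean of probe sets, eBayes with trend and robust, array weights, other covariates, subsets of tumours and leaving out each tumour. The promoter search, the macrophage mean as a covariate and relations centred on model were added after seeing the data.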

Additional observations from a re-analysis of the deposited data

Results flagged for a closer look

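Dixon's test at the 95% level looked, within each model of 4 tumours, for a tumour far from the rest. Ifng, Cd79a, Ms4a1 and the neighbours in gene order were left out. The test covered the class II genes, the list means and the genes named by smallest p or by likeness. It marked 7 of 142 tests, and chance gives about 1 in 20, here about 7. Among the class II genes this held for H2-Aa in shRNA OS replicate 1, at 12.56 with the nearest tumour at 11.06, and for the mean of the 8 class II genes in the same tumour, at 10.04 with the nearest at 8.87. The test also marked Slamf7 in that tumour, at 9.05 against 6.91, and Tie1, at 8.82 against 9.36. Slamf7 had been named for its likeness to the class II mean, which was highest in the same tumour. In Cre:lox OS replicate 3 the dendritic cell genes Cd209a (7.11 against 6.45) and Clec9a (5.98 against 5.47) lay above the others, and in Cre:lox OS replicate 4 Col1a1 lay below them at 13.0 against 13.55.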

How the results depend on the processing

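No class II gene passed the adjusted test in any of 19 alternatives for models or 18 for sites, with smallest adjusted p of 0.165 (Cd74 between models, with array weights) and 0.465 (H2-DMa between sites). In the main fits 0.0201% of all genes passed between models and 0% between sites, and the shares in the alternatives are not given here. A lack of calls is therefore not particular to these genes. In each comparison 15 alternatives could move an estimate. Between models H2-Aa, H2-Ab1, H2-Eb1, Cd74 and Ciita kept their sign in 15 of the 15, H2-DMa in 13, H2-Ob in 12 and H2-Oa in 10, which turned to -0.01 with quantile normalization. Between sites H2-Aa and H2-Ab1 kept it in 15, H2-Oa in 12 and the other 5 in 14. The mean difference of the 8 genes ran from 0.26 (without shRNA OS replicate 1) to 1.07 (macrophage mean as covariate) between models, beside 0.57, and from 0.44 (without Cre:lox OS replicate 2) to 0.91 (only Rbfl/+ tumours) between sites, beside 0.65. With the macrophage mean as a covariate the site mean turned to -0.19, and the cause was not tested. Without the 2 tumours farthest from the median, r of Cd74 turned to -0.41 with the B cell mean, -0.21 with Ciita and -0.062 with the T and NK cell mean. Leaving out each tumour in turn, r ran from -0.024 to 0.64 with the dendritic cell mean, from -0.072 to 0.31 with interferon gamma signalling and from -0.16 to 0.25 with the macrophage mean. It stayed positive with Ciita (0.55 to 0.86), the T and NK cell mean (0.45 to 0.87) and the B cell mean (0.31 to 0.83). None of these pooled values passed the adjustment. Centred on model, r ran from 0.86 to 0.98 with interferon gamma signalling, 0.62 to 0.84 with the macrophage mean and 0.53 to 0.78 with Ciita. It ran from 0.60 to 0.87 with the T and NK cell mean, 0.21 to 0.70 with the B cell mean and 0.03 to 0.59 with the dendritic cell mean. No paired analysis was possible because the labels give no shared replicate numbers. Low signal limits Ciita, H2-Oa and H2-Ob.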
